A study of Rattus norvegicus and Mus musculus and Macaca mulatta with 84 samples.

Results

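The liver holds most of the body's vitamin A and releases it to the blood bound to carrier proteins. RNA values were taken for 7 genes of this pathway: Rbp4, Ttr, Lrat, Dhrs3, Rdh16, Aldh1a1 and Cyp26a1. They were chosen by gene symbol, and 6 of 32754 rows of the rat table and 7 of 48440 rows of the mouse table matched; rat Rdh16 was not analysed here. All matched rows had a mean of at least 10 and were tested. The study profiled 84 liver samples from models of diabetes, obesity and diet, and the 31 libraries of polyadenylated RNA among them are used here.

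The rats were of the UCD-T2DM strain, in which obesity and insulin resistance come before type 2 diabetes. They were prediabetic (n = 5) or had been diabetic for 2 weeks (n = 4), 3 months (n = 5) or 6 months (n = 6). All 4 groups are of the same strain, and the labels used here give no age, so the length of diabetes and age cannot be told apart. C57BL/6J mice had been given LNA-29 (n = 5), a locked nucleic acid directed at the microRNA miR-29, or belonged to its control group (n = 6). The labels used here do not state what the controls received, the dose or the time. Nothing in the labels states that each library came from its own animal, so the p-values speak only of the variation among these libraries, part or all of which may be technical. Where livers are counted below, the count is of libraries.

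Retinol leaves hepatocytes bound to retinol-binding protein, which travels in blood in a complex with transthyretin. Inside the liver, retinol is stored as retinyl ester in the lipid droplets of stellate cells. Dehydrogenases convert retinol to retinal and on to retinoic acid, which acts through nuclear receptors (RARs and RXRs), and cytochromes of the CYP26 family break retinoic acid down.

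Values are normalised read counts as deposited by the authors. In units of 1000000, they summed to 37.6 to 49.9 in a rat library and to 43.3 to 52.8 in a mouse library. A library's median correlation with the others of its group was 0.960 to 0.981 in rats and 0.981 to 0.987 in mice. Prediabetic library 2 stood apart from its group, with a median correlation of 0.960 where the other 4 prediabetic libraries had 0.978 to 0.981. No hepatocyte marker that had a row averaged under 1, and Alb, the albumin gene, averaged 3814665 over the rat libraries. Of 17 miR-29 targets listed beside the mouse label, 10 were called higher and none lower with LNA-29, with a median log2 change of 0.58. Over all genes tested, 2.43% were called. The list was chosen with earlier results of these data known, so it is not an independent check of the label. Log2 changes are differences of mean log2(normalised count + 1), which understate changes of low genes, and folds are ratios of group means. A gene was called at an adjusted p under 0.05 in limma, with Benjamini-Hochberg adjustment over all genes tested.

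In diabetic rats, transthyretin and Dhrs3 RNA fell at 3 and 6 months and Cyp26a1 RNA rose at 6 months, while Rbp4 was not called at any stage. With each library left out in turn, the Dhrs3 call ended in 6 of 10 fits at 3 months and in 3 of 11 at 6 months. Against prediabetic livers, 3 of the 6 genes were called at 3 months, when 16.5% of all genes tested were called, and 3 at 6 months, when 21.1% were. The genes called at 3 months were Ttr and Dhrs3, both lower, and Lrat, which was higher. Those called at 6 months were Ttr and Dhrs3, again lower, and Cyp26a1, which was higher. At 2 weeks limma called none of the 6 and 0% of all genes, although 2 of the 6 and 1077 of the 13640 genes had an unadjusted p under 0.05. The median log2 change of the 6 genes was -0.07 at 2 weeks, -0.30 at 3 months and -0.21 at 6 months, beside 0.02, 0.02 and 0.01 over all genes tested. These 3 comparisons share the same 5 prediabetic libraries. Without prediabetic library 2, which had the lowest correlation with its group, 1 of the 6 genes was called at 3 months and 3 at 6 months, beside 2082 and 3573 of all genes, where the fit of all libraries called 2248 and 2875. Ttr then stood at log2 -1.22 at 3 months (adjusted p = 0.000559) and -1.13 at 6 months (adjusted p = 0.000386). Cyp26a1 stood at 2.19 (adjusted p = 0.0058) and Dhrs3 at -0.49 (adjusted p = 0.0499) at 6 months. Between diabetic stages, limma called 1 of the 6 at 3 months against 2 weeks, where 2.35% of all genes were called. It called 3 at 6 months against 2 weeks, where 8.82% of all genes were. None of the 6 was called at 6 months against 3 months, where 0.0147% of all genes were. There 2 of the 6 and 1058 of the 13640 genes had an unadjusted p under 0.05.

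**Figure D1:**
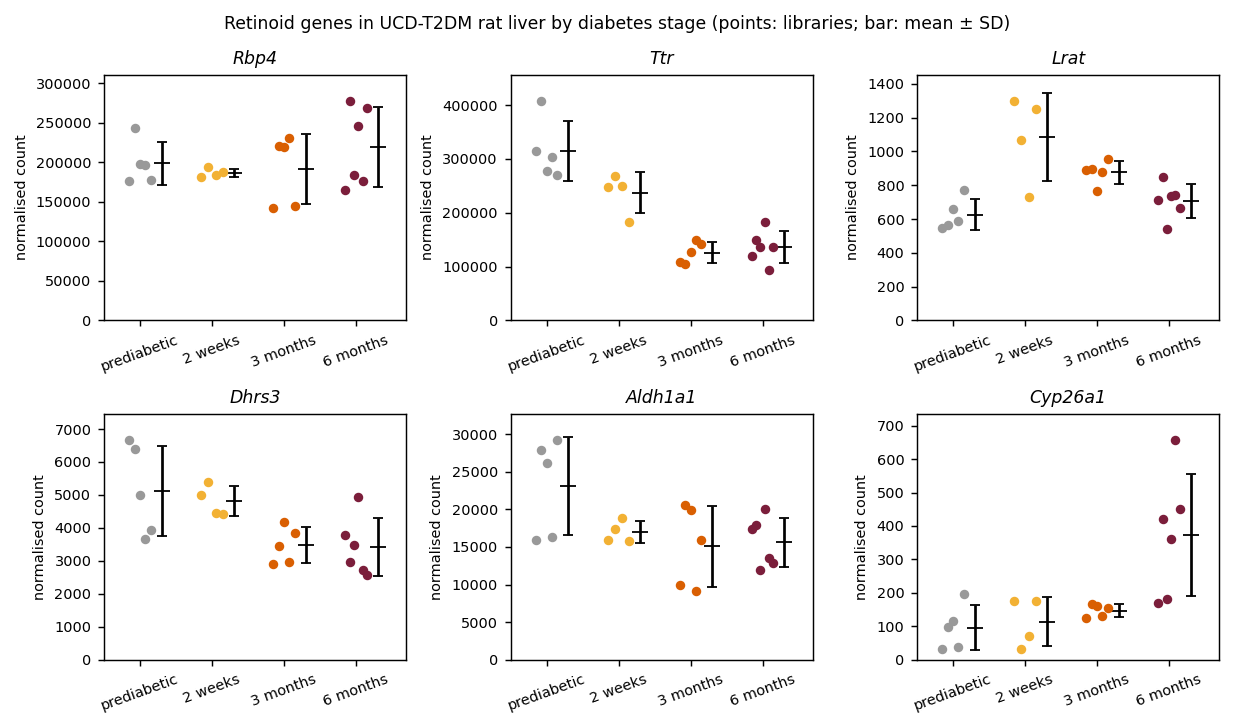
Normalised counts (axes from 0) of the 6 rat genes in prediabetic, 2-week, 3-month and 6-month livers; points are libraries and bars show the mean ± SD. No 3-month or 6-month Ttr point reaches the lowest prediabetic point, and the 4 highest Cyp26a1 points are all at 6 months.

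Rbp4 encodes the plasma carrier that takes retinol out of the liver. Rbp4 was at 176200.4, 243687, 197479, 196935 and 178057 in prediabetic livers. It was at 180786, 193492, 183876 and 187691 at 2 weeks and at 142451, 221085, 219721, 230802 and 144852 at 3 months. At 6 months it was 164568 at the lowest, 215052 at the median and 277526 at the highest. All stages overlapped. The change from prediabetic livers was -0.08 on the log2 scale at 2 weeks (adjusted p = 0.951), -0.07 at 3 months (adjusted p = 0.819) and 0.12 at 6 months (adjusted p = 0.66). The 95% confidence interval at 6 months ran from -0.24 to 0.49. The spread between livers varied by stage, which was not tested. The coefficient of variation was 13.7% in prediabetic livers, 2.93% at 2 weeks, 23.02% at 3 months and 22.96% at 6 months. At 3 months, 2 livers lay below all prediabetic livers and the other 3 lay within the prediabetic range.

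Ttr encodes transthyretin, which binds the retinol-binding protein complex in plasma and also carries thyroxine. Ttr was at 315020.1, 407732, 277300.4, 304153 and 270159.6 in prediabetic livers. At 2 weeks it was at 247759.6, 269061, 249286 and 182839.9. By 3 months it was at 109242, 104027, 126562, 148547 and 141869, and at 6 months it was 93076 at the lowest, 135940.4 at the median and 182207 at the highest. Every diabetic liver of each stage lay below every prediabetic liver, and every 3-month and 6-month liver also lay below every 2-week liver. Groups that do not overlap in either direction were found for 3.73% of all genes at 2 weeks, 12% at 3 months and 9.8% at 6 months against prediabetic livers, and for 8.06% at 3 months and 9.78% at 6 months against 2 weeks. Ttr averaged 126049.5 ± 19520.4 at 3 months and 314873 ± 55111 in prediabetic livers (SD, n = 5 each), a ratio of 0.400 (log2 -1.32, SE 0.18, adjusted p = 0.000181). At 6 months it averaged 136148 ± 29828 (n = 6), a ratio of 0.432 to the prediabetic mean (log2 -1.22, SE 0.17, adjusted p = 0.00012). The 2-week difference did not pass the test (log2 -0.41, SE 0.19, 95% confidence interval -0.80 to -0.01, adjusted p = 0.612).

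Between diabetic stages, Ttr fell at 3 months relative to 2 weeks (log2 -0.91, SE 0.19, adjusted p = 0.0226), in a comparison that called 2.35% of all genes. It fell as well at 6 months relative to 2 weeks (log2 -0.82, SE 0.18, adjusted p = 0.0118), where 8.82% of genes were called. The 3-month call ended without 2-week library 1 (adjusted p = 0.0744), 2-week library 2 (0.104), 3-month library 1 (0.0663) or 3-month library 2 (0.0519), and the 6-month call without 2-week library 2 (adjusted p = 0.0553). At 6 months against 3 months the log2 change was 0.10 (adjusted p = 0.874), in a comparison with 2 genes (0.0147%) called. Of 9 hepatocyte markers tested, none rose and 1 fell at 3 months, with a median log2 change of 0.01. At 6 months 1 rose and none fell, with a median of -0.07. Against prediabetic livers, 16.5% of all genes were called at 3 months and 21.1% at 6 months. The summed level of the hepatocyte markers was 4190720.0 to 6925979 at 3 months, 5733810.0 to 9199432 at 6 months and 4567173 to 6288163 in prediabetic livers. The part of these markers in the Ttr result was not tested.

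Lrat encodes lecithin retinol acyltransferase, which makes the retinyl esters stored in stellate cells. Lrat was at 549, 564, 658, 586 and 772 in prediabetic livers. At 2 weeks it was at 1299, 1067, 728 and 1254, so that 3 of 4 libraries exceeded all prediabetic ones. At 3 months it was at 890.2, 894, 766, 876 and 958, with 4 of 5 libraries above all prediabetic ones, and at 6 months it was 541 at the lowest, 727 at the median and 846 at the highest. The group mean was highest at 2 weeks. Lrat averaged 1087 ± 259 at 2 weeks (n = 4) and 626 ± 92.1 in prediabetic livers (n = 5), a ratio of 1.74. With a log2 change of 0.77 (SE 0.15) it ranked 4th of 13640 genes by p at 2 weeks, but it missed the threshold after adjustment over all genes (adjusted p = 0.166). Without 2-week library 3, the lowest of that group, it was called (adjusted p = 0.0137). In the other 8 fits with a library left out it was not called (adjusted p from 0.146 to 0.671). Nor was it called when only the 2 groups compared were fitted (adjusted p = 0.365), or with a replicate block as well (0.562).

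Lrat rose at 3 months (log2 0.49, SE 0.15, adjusted p = 0.0254). This call ended without 3-month library 1 (adjusted p = 0.0547), 3-month library 2 (0.0516) or prediabetic library 1 (0.0575), 2 (0.0519) or 4 (0.0591). At 6 months Lrat was not called against prediabetic livers (log2 0.18, SE 0.14, adjusted p = 0.394), and it was lower than at 2 weeks (log2 -0.60, SE 0.15, adjusted p = 0.0191). The call against 2 weeks ended without 2-week library 1 (adjusted p = 0.0799), 2 (0.0645) or 4 (0.0665). It also ended when only the 2 groups compared were fitted (adjusted p = 0.0533), and with a replicate block as well (0.125).

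Stellate cell markers did not follow the same order of stages as Lrat by their medians. Of 13 markers tested, none was called at 2 weeks (median log2 change 0.24, 2 with an unadjusted limma p under 0.05), 8 were higher at 3 months (0.73) and 9 were higher at 6 months (0.70), with none lower. Over all genes tested, 16.5% were called at 3 months and 21.1% at 6 months, and 1077 of 13640 had an unadjusted limma p under 0.05 at 2 weeks. The summed marker level was 7106 to 10872 in prediabetic livers, 9271 to 11788 at 2 weeks, 11707 to 16634 at 3 months and 10498 to 15947 at 6 months, and no marker averaged under 1. Their part in the Lrat result was not tested. In bulk tissue, a change in the number of cells of a type and a change of RNA per cell cannot be told apart.

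**Figure D2:**
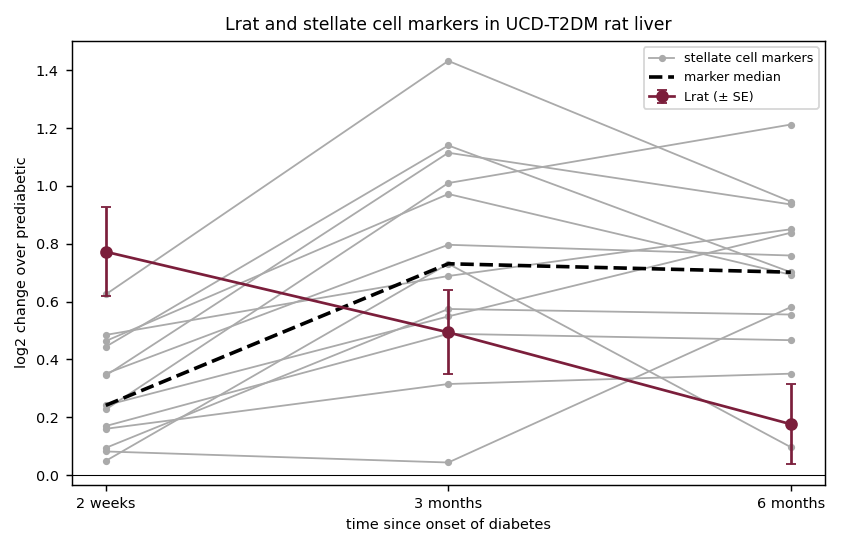
Log2 change over prediabetic livers of Lrat (± SE) and of 13 stellate cell markers (grey lines, with their median dashed) at 2 weeks, 3 months and 6 months of diabetes. Lrat stands at 0.77, 0.49 and 0.18 while the marker median stands at 0.24, 0.73 and 0.70.

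Dhrs3 encodes the retinal reductase that returns retinal to retinol. Dhrs3 was at 6661, 6382, 4995, 3669 and 3935 in prediabetic livers. It was at 4992, 5379, 4454 and 4428 at 2 weeks. At 3 months it was at 2915, 3445, 4182, 2974 and 3847, and at 6 months it was 2571 at the lowest, 3224 at the median and 4929 at the highest. All 3-month livers lay below all 2-week livers, while the prediabetic livers spread over both ranges. Between 3 months and 2 weeks, groups that do not overlap in either direction were found for 8.06% of all genes, as given above for Ttr. Dhrs3 averaged 3473 ± 549 at 3 months and 5128 ± 1369 in prediabetic livers (n = 5 each; log2 -0.53, SE 0.18, adjusted p = 0.0497), and 3409 ± 878 at 6 months (n = 6; log2 -0.58, SE 0.17, adjusted p = 0.0227). The 3-month call ended without 3-month library 1 (adjusted p = 0.118), 2 (0.0837) or 4 (0.101), or prediabetic library 1 (0.12), 2 (0.114) or 3 (0.0742). The 6-month call ended without 6-month library 5 (adjusted p = 0.0548) or 6 (0.0521), or prediabetic library 1 (0.067). Both calls also ended when only the 2 groups compared were fitted (adjusted p = 0.0775 at 3 months and 0.0632 at 6 months), and the 3-month call without a filter on low values (0.0676) or without a variance trend (0.0598).

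Aldh1a1 encodes a retinal dehydrogenase that makes retinoic acid. Aldh1a1 was at 15901, 27898, 26153, 16372 and 29200.4 in prediabetic livers, of which 2 libraries were low and 3 high. At 2 weeks it was at 15978, 17375, 18875 and 15749. It was at 9969, 20581, 19949, 9120.2 and 15961 at 3 months, and at 6 months it was 11924 at the lowest, 15452 at the median and 20103 at the highest. The diabetic means were lower at every stage, but the groups overlapped and none was called in the fit of all libraries. Log2 changes were -0.40 at 2 weeks (adjusted p = 0.696), -0.64 at 3 months (adjusted p = 0.0623) and -0.54 at 6 months (adjusted p = 0.0876). At 3 months it was called without 3-month library 2 (adjusted p = 0.0389) or 3 (0.0401), or prediabetic library 1 (0.0374) or 4 (0.0487). It was also called at 3 months with a replicate block (adjusted p = 0.0272). Aldh1a7, a near-identical copy in rodents, can share reads with Aldh1a1, so values of both are uncertain.

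Cyp26a1 encodes the main hepatic enzyme that breaks down retinoic acid, and retinoic acid induces its transcription. Cyp26a1 was at 31.5, 97.6, 115, 38.1 and 196 in prediabetic livers. At 2 weeks it was at 176, 32.5, 70.9 and 174. It was at 125, 166, 160.4, 130.04 and 155 at 3 months, and at 6 months it was 171 at the lowest, 391 at the median and 656 at the highest. At 6 months 4 of 6 livers exceeded all prediabetic livers, 5 of 6 exceeded all 2-week livers, and all 6 lay above all 3-month livers. Groups that do not overlap were found for 0.85% of all genes between 6 and 3 months. Cyp26a1 averaged 374 ± 182 at 6 months (n = 6) and 95.6 ± 66.8 in prediabetic livers (n = 5), a 3.91-fold difference (log2 2.11, SE 0.48, 95% confidence interval 1.11 to 3.10, adjusted p = 0.00473). This call held with each library left out in turn (adjusted p from 0.00273 to 0.0186).

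Against 2 weeks, Cyp26a1 rose at 6 months (log2 1.85, SE 0.51, adjusted p = 0.0306). That call ended without 2-week library 2 (adjusted p = 0.141) or 3 (0.0712), or 6-month library 2 (0.0538), 5 (0.0727) or 6 (0.0605). Against 3 months the difference was not called (log2 1.19, SE 0.48, adjusted p = 0.632). At 3 months the change from prediabetic livers was 0.92 (SE 0.50, adjusted p = 0.215), and at 2 weeks 0.26 (SE 0.53, adjusted p = 0.939). Relative to the mean, the spread was widest in prediabetic livers, with a coefficient of variation of 69.9%. It was 64.4% at 2 weeks, 12.6% at 3 months and 48.8% at 6 months. The SD itself was largest at 6 months (182, against 66.8 in prediabetic livers). Kupffer cell and macrophage markers were higher at 6 months in 8 of 9 (summed level 20485 to 59571 at 6 months and 12808 to 20373 in prediabetic livers). Pericentral hepatocyte markers were higher in 3 of 8 (summed level 100418 to 277769 at 6 months and 122067 to 128091 in prediabetic livers). Over all genes tested, 21.1% were called at 6 months against prediabetic livers. The part of either in the Cyp26a1 result was not tested.

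Cyp26a1 and Dhrs3 are both known as genes that retinoic acid can induce, and here they moved in opposite directions at 6 months. The 6-month call of Dhrs3 ended in some refits, as given above. The 250 bases upstream of the starts of both genes are given as sequence only, from RefSeq on the rat GRCr8 assembly. Whether they bear on the opposite directions was not tested. Direct repeats of the retinoic acid response half-site forms AGTTCA and AGGTCA with a 5-base spacer were searched on both strands. The motifs were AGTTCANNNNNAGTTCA, AGTTCANNNNNAGGTCA, AGGTCANNNNNAGTTCA and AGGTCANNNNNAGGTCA. No letters other than these were allowed, and capitals mark a match. The Cyp26a1 region is chr1:244883572-244883821 on the plus strand, and that of Dhrs3 is chr5:162031603-162031852 on the plus strand.
Cyp26a1: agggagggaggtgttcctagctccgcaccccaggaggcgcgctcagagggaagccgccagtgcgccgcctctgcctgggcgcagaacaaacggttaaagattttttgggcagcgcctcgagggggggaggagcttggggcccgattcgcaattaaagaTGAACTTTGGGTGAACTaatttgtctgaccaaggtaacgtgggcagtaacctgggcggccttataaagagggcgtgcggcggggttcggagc
Dhrs3: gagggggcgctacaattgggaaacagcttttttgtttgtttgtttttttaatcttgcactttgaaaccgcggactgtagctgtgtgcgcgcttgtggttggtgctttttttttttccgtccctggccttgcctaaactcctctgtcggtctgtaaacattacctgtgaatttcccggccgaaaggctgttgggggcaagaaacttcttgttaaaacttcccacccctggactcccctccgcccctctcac
The Cyp26a1 region held 1 match, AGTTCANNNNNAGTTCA on the minus strand, with its first base 92 bases before the start. Dhrs3 held none in this window, nor did Rbp4, Ttr, Lrat or Aldh1a1. Over all 33469 rat promoter windows of that length, 10 (0.0299%) held any of the 4 motifs. Other half-site forms and spacer lengths were not searched. The share therefore holds for these 4 motifs only and does not measure how unusual the Cyp26a1 match is. A match describes letters and is not a measured binding site. The lack of a match in 250 bases does not show that a gene has no such site.

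**Figure D3:**
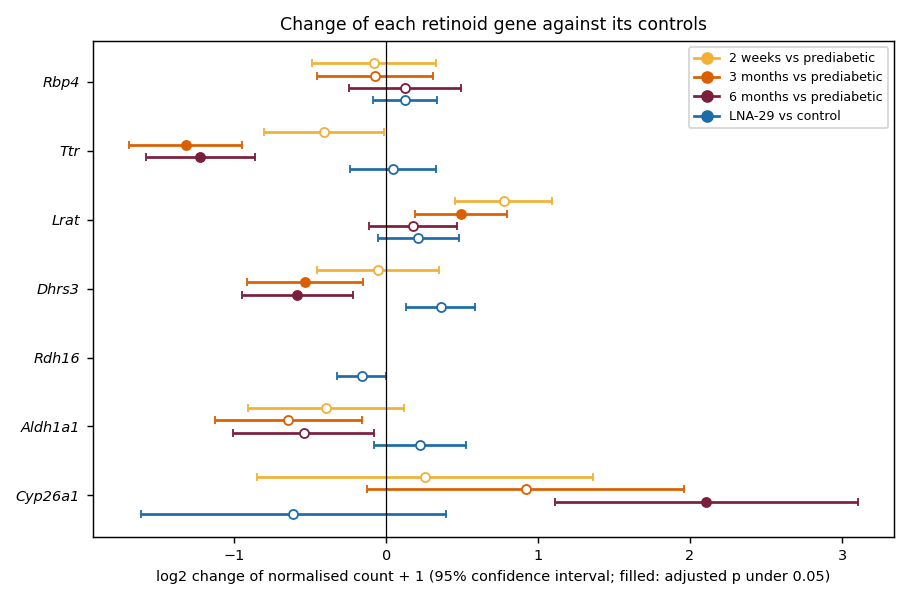
Log2 change of each gene with its 95% confidence interval for 2 weeks, 3 months and 6 months of diabetes against prediabetic rats and for LNA-29 against control mice; filled points were called. Ttr lies at -1.32 and -1.22 at 3 and 6 months, Cyp26a1 at 2.11 at 6 months, and no LNA-29 point is filled.

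Across the 20 rat libraries, the members were unevenly correlated with one another. Over all libraries Ttr and Dhrs3 had the highest correlation among the pairs (Pearson r = 0.77 over the log2 values), which was 0.52 after each stage's mean was removed. Within stages the highest was that of Lrat and Cyp26a1, at 0.57, where it was 0.13 over all libraries. Rbp4 and Ttr, whose proteins travel together, had r = 0.09 over all libraries and 0.46 within stages. The points share 4 stages and the same libraries, so these are descriptions. Of 11416 other genes with a mean of at least 50, those most like Rbp4 were Hsd17b11 (r = 0.95), Ahcy (0.94) and Hsd17b10 (0.92). Those most like Ttr were Nubpl (0.96), Cadm4 (0.95) and Tmem86b (0.95), and among those most like Lrat were Ctps2 (0.76) and Lrrn3 (0.73). Dhrs3 was closest to AABR07036019.1 (0.91), Serpina3c (0.90) and Asgr2 (0.90), and Aldh1a1 to Ephx2 (0.85), Hsd17b4 (0.82) and Rnls (0.78). Cyp26a1 was closest to Ces2 (0.83), Angptl6 (0.82) and Mfge8 (0.80).

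Other genes of the pathway moved in both directions at 6 months. Of 46 tested genes on the retinoid lists, 12 were higher and 9 lower than in prediabetic livers, with a median log2 change of 0.01, in a comparison that called 21.1% of all genes. At 3 months 5 were higher and 7 lower, where 16.5% of all genes were called, and at 2 weeks none was called.

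Among 11 genes of retinyl ester formation, hydrolysis and carotenoid cleavage, 2 rose and 2 fell at 6 months, where 21.1% of all genes were called. Lpl, lipoprotein lipase, averaged 1441 ± 892 in 6-month and 479.6 ± 269 in prediabetic livers (log2 1.57, SE 0.40, adjusted p = 0.00925). Lipe, hormone-sensitive lipase, averaged 505 ± 74.5 in 6-month and 359.9 ± 85.97 in prediabetic livers (log2 0.51, SE 0.17, adjusted p = 0.0413). Hepatic lipase fell: Lipc averaged 7326 ± 1874 in 6-month and 18661 ± 1629.7 in prediabetic livers (log2 -1.38, SE 0.16, adjusted p = 3.37e-05). Pnpla3, whose human product hydrolyses retinyl esters in stellate cells, averaged 58.3 ± 42.7 in 6-month and 1610.2 ± 1901 in prediabetic livers (log2 -3.62, SE 0.85, adjusted p = 0.00575), with an SD in prediabetic livers above the mean.

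Of 13 retinol and retinal dehydrogenases and reductases, 4 rose and 5 fell at 6 months, where 21.1% of all genes were called. The 2 rises with the largest log2 change were of genes with a mean under 10 in prediabetic livers. Dhrs9, a retinol dehydrogenase, averaged 26.6 ± 19.9 in 6-month and 4.49 ± 1.69 in prediabetic livers (log2 2.10, SE 0.49, adjusted p = 0.0056). Akr1b10, a retinal reductase in humans, averaged 44.4 ± 25.4 in 6-month and 9.82 ± 3.71 in prediabetic livers (log2 1.95, SE 0.43, adjusted p = 0.00377). The 2 largest falls were those of Retsat and Dhrs4. Retsat, retinol saturase, averaged 36534 ± 8111 in 6-month and 64324 ± 5594 in prediabetic livers (log2 -0.84, SE 0.15, adjusted p = 0.000682). Dhrs4, a retinal reductase, averaged 4391 ± 877 in 6-month and 7133 ± 1066 in prediabetic livers (log2 -0.71, SE 0.14, adjusted p = 0.00189).

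The 6 genes of retinoic acid synthesis and breakdown gave 4 rises and 1 fall, with a median log2 change of 1.31, where 21.1% of all genes were called. The rises include Aldh1a7, whose values are uncertain as stated above. Whether its product makes retinoic acid was not examined. Cyp1b1, a cytochrome that can oxidise retinol and retinal, averaged 46.97 ± 33.4 in 6-month and 5.67 ± 4.79 in prediabetic livers (log2 2.80, SE 0.63, adjusted p = 0.00466). Aldh1a7 averaged 23.97 ± 18.5 in 6-month and 4.83 ± 4.16 in prediabetic livers (log2 2.05, SE 0.66, adjusted p = 0.0327). Both had a mean under 10 in prediabetic livers, so their folds rest on low values. Aldh8a1, a dehydrogenase of 9-cis-retinal, fell and averaged 20246 ± 2559.8 in 6-month and 28342 ± 4018 in prediabetic livers (log2 -0.48, SE 0.12, adjusted p = 0.0101). Cyp26b1, the other CYP26 enzyme tested, can also be induced by retinoic acid; it rose and averaged 99.8 ± 64.2 in 6-month and 32.01 ± 10.5 in prediabetic livers (log2 1.44, SE 0.43, adjusted p = 0.0225).

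Of 9 genes tested on the receptor list, 1 rose and 1 fell, where 21.1% of all genes were called. The list held the RAR and RXR genes and also Ppard, Nr2f1 and Nr2f2, and none of these last was called. Rarg averaged 333 ± 75.3 in 6-month and 228 ± 24.4 in prediabetic livers (log2 0.52, SE 0.15, adjusted p = 0.0185). Rxrg averaged 529 ± 123 in 6-month and 818 ± 77.6 in prediabetic livers (log2 -0.66, SE 0.19, adjusted p = 0.0189). Because transthyretin also carries thyroxine, thyroid hormone genes were described beside it, and 1 of 8 rose and 3 fell. Serpina7, thyroxine-binding globulin, averaged 5978 ± 1971 in 6-month and 871 ± 541 in prediabetic livers (log2 3.03, SE 0.39, adjusted p = 7.24e-05). Dio1, the deiodinase that activates thyroxine in liver, averaged 1974 ± 993 in 6-month and 5672 ± 1004 in prediabetic livers (log2 -1.66, SE 0.34, adjusted p = 0.00269). Thrsp, a thyroid hormone-responsive gene of lipid synthesis, averaged 7128 ± 3149 in 6-month and 29309.5 ± 10712 in prediabetic livers (log2 -2.08, SE 0.51, adjusted p = 0.0079).

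**Figure D4:**
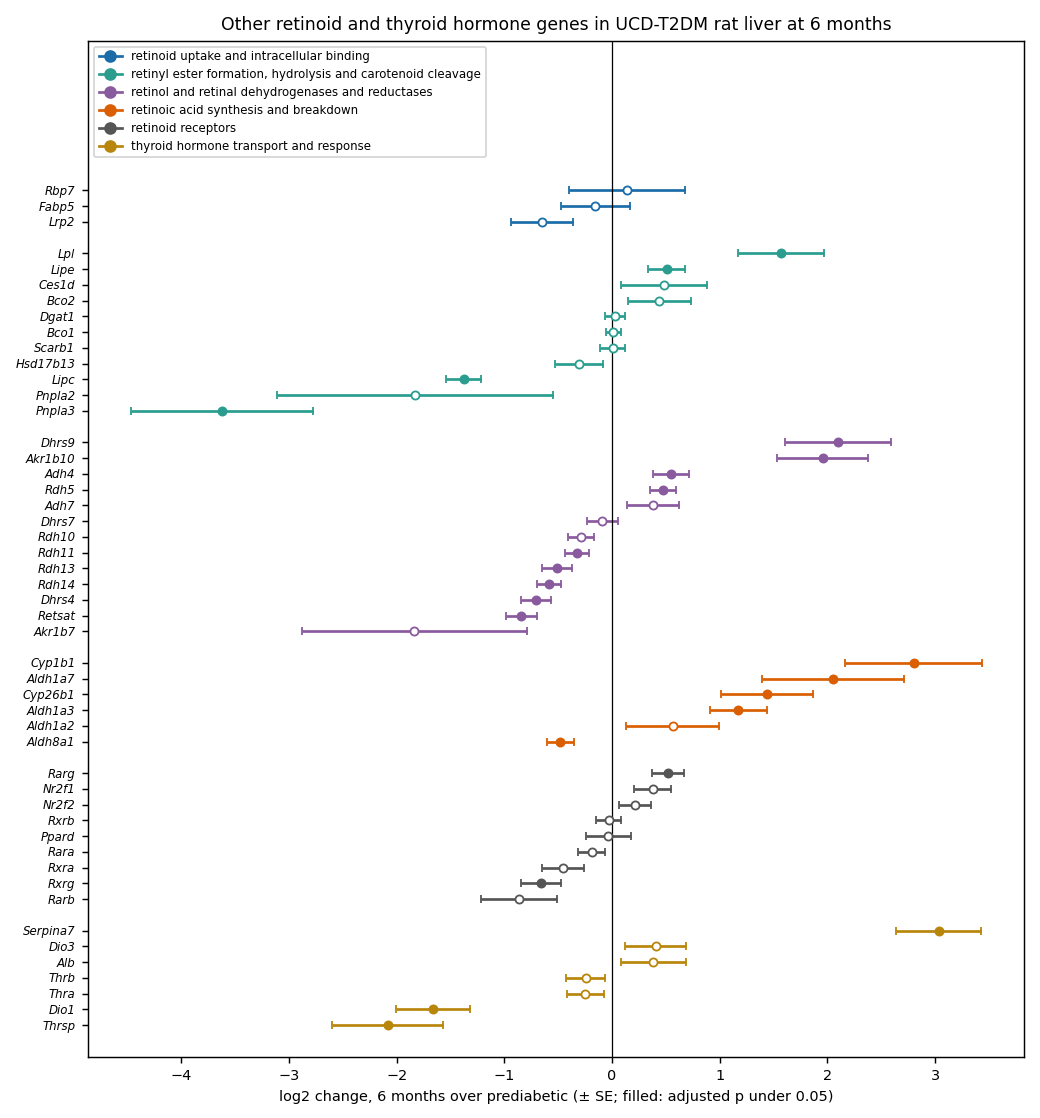
Log2 change (± SE) of other retinoid genes and of thyroid hormone genes tested, 6 months over prediabetic livers, coloured by list; filled points were called. Serpina7 (3.03) and Cyp1b1 (2.80) lie farthest to the right and Pnpla3 (-3.62) farthest to the left.

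In mice, limma called none of the 7 genes with LNA-29, in a comparison that called 355 of 14596 genes (2.43%). Of the 7, 1 had an unadjusted p under 0.05, beside 2809 of all 14596 genes. The 7 had a median log2 change of 0.12, beside 0.00053 over all genes. LNA-29 is directed at miR-29, whose 3 mature members share a seed, the bases that pair with targets. They are printed to show that shared seed (bases 2 to 8, in capitals), from RefSeq on rat GRCr8; the mouse sequences were not used here.
rno-miR-29a-3p: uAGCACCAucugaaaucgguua
rno-miR-29b-3p: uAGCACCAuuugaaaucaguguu
rno-miR-29c-3p: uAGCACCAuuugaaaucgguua
The 3 sequences are alike in the seed and differ after it.

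Dhrs3 came closest to a call. Dhrs3 was at 4362, 4067, 4592, 4638 and 4548 with LNA-29, and in control livers it was 2558 at the lowest, 3556 at the median and 4185 at the highest. With LNA-29, 4 of 5 livers lay above all control livers (log2 0.36, SE 0.10, 95% confidence interval 0.13 to 0.58, adjusted p = 0.087). Its adjusted p stayed at 0.0622 or above with each library left out in turn.

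Lrat was at 851, 567, 876, 895 and 932 with LNA-29, and in control livers it was 627 at the lowest, 685 at the median and 859 at the highest. LNA-29 library 2 was the lowest of all 11 and the other 4 were high, 3 of them above every control (log2 0.21, SE 0.12, 95% confidence interval -0.06 to 0.48, adjusted p = 0.38). Without that library Lrat was called (log2 0.34, adjusted p = 0.0471). LNA-29 library 2 was not apart in Lrat only. It held the highest LNA-29 value of Rbp4, Ttr, Aldh1a1, Rdh16 and Cyp26a1 and the lowest of Dhrs3. Its median correlation with its group, 0.981, was the lowest of the mouse libraries. None of the 13 stellate cell markers was called by limma with LNA-29 (1 with an unadjusted p under 0.05; median log2 change -0.06; summed level 12570.4 to 17028 with LNA-29 and 13542 to 15535 in control livers).

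Rdh16 encodes a retinol dehydrogenase of the endoplasmic reticulum. Rdh16 was at 6148, 6855, 6794, 6534 and 6242 with LNA-29, and in control livers it was 6512 at the lowest, 7217 at the median and 8672 at the highest. The LNA-29 values were low and close together, and overlapped the controls (log2 -0.16, SE 0.07, 95% confidence interval -0.32 to 0.00, adjusted p = 0.267). Mice carry several close relatives of Rdh16, so its counts may share reads with them.

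Cyp26a1 was at 393, 612, 143, 186 and 185 with LNA-29, and in control livers it was 153 at the lowest, 403 at the median and 821 at the highest. The highest value was 4.28 times the lowest with LNA-29 and 5.38 times in control livers (log2 -0.61, SE 0.46, 95% confidence interval -1.62 to 0.39, adjusted p = 0.503). Aldh1a1 averaged 41141 ± 5946 with LNA-29 and 35636 ± 7898 in control livers (log2 0.22, SE 0.14, adjusted p = 0.416). Neither plasma carrier was called. Rbp4 averaged 157645 ± 14408 with LNA-29 and 144588 ± 11094 in control livers (log2 0.12, SE 0.10, 95% confidence interval -0.09 to 0.33, adjusted p = 0.521). Ttr averaged 134694 ± 9789 with LNA-29 and 132395 ± 24071 in control livers (log2 0.04, SE 0.13, 95% confidence interval -0.24 to 0.33, adjusted p = 0.9; SD, n = 5 and 6 throughout).

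**Figure D5:**
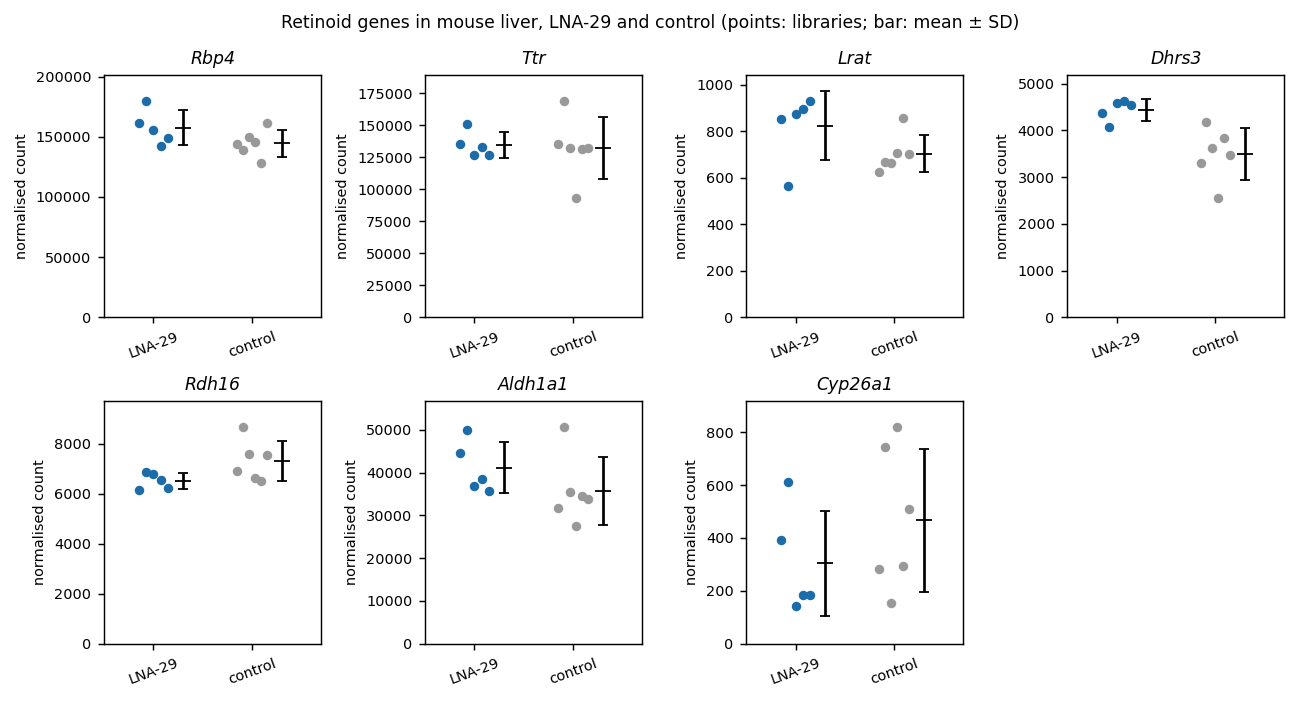
Normalised counts (axes from 0) of the 7 genes in LNA-29 and control mouse livers; points are libraries and bars show the mean ± SD. Of the 5 LNA-29 points for Dhrs3, 4 lie above every control point, and the Cyp26a1 points of both groups are widely spread.

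Of 55 other retinoid genes tested in mice, 1 was called, a rise, where 2.43% of all genes were called. Lpl averaged 1122 ± 273 in LNA-29 and 644 ± 61.5 in control livers (log2 0.77, SE 0.13, adjusted p = 0.0124). Of 3 genes of retinoid uptake none was called (0 with an unadjusted limma p under 0.05), and Stra6l, a hepatic receptor for retinol-binding protein, averaged 5617 ± 177 in LNA-29 and 5662 ± 589 in control livers (log2 -0.01, SE 0.07, adjusted p = 0.98). Among 19 dehydrogenases and reductases, Retsat had a log2 change of 0.13 (adjusted p = 0.331) and Rdh7 of 0.15 (adjusted p = 0.327). Among the genes of retinoic acid synthesis and breakdown, Aldh8a1 had a log2 change of -0.03 (adjusted p = 0.89) and Aldh1a7 of 0.08 (adjusted p = 0.808). The receptor Rxra had a log2 change of 0.01 (adjusted p = 0.98) and Nr2f2 of -0.29 (adjusted p = 0.19). Of the retinoic acid responsive genes, Rarres2 had 0.15 (adjusted p = 0.21) and Tgm2 0.05 (adjusted p = 0.807). Of 7 thyroid hormone genes none was called (3 with an unadjusted limma p under 0.05), with a log2 change of -0.03 for Alb (adjusted p = 0.973). Over all genes, 2809 of 14596 had an unadjusted limma p under 0.05 with LNA-29. Whether the rat and mouse changes differ was not tested, since the tables were normalised separately.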

How the data were processed

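Liver polyadenylated RNA was sequenced with the Illumina TruSeq kit per the labels. The authors deposited normalised counts, a signal whose values need not be whole. The submitters' processing notes name STAR, Salmon and DESeq2 and the builds rn6 and mm10 among others; which step each served is not given in the sources used here. Of values under 30, 65.0% to 87.8% per rat library and 54.2% to 69.0% per mouse library were within 0.05 of a whole step, so whole reads were not recovered, the depth in reads is unknown and no count model was run.

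Values were transformed to log2(value + 1). Genes with a table mean of at least 10 were tested, 13640 of 32754 in rats and 14596 of 48440 in mice. A single limma fit per table (version 3.58.1, R 4.3.3), with a variance trend and no covariate, held every group and gave 7 comparisons in all. Tests were two-sided with Benjamini-Hochberg adjustment. The procedure was tested on simulated data.

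The genes and lists were chosen with earlier results of these data known. Of each list, up to 2 called genes per direction with the largest log2 change were named at 6 months and with LNA-29, or, where none was called, the 2 with the highest mean. The 3 genes most correlated with each member were named as a description. A few genes that these rules pick are not reported here, though list counts include them. Alternatives were the pseudocount, the filter, median-of-ratios scaling, the variance trend, the groups fitted, a replicate block and leaving out each library.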

Additional observations from a re-analysis of the deposited data

Results flagged for a closer look

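Of 38 groups of libraries examined, one for each gene and condition, 3 had a library far from its fellows by Dixon's ratio, the gap to the nearest library divided by the range of the group. Chance flags about 1 in 20 groups. In mice given LNA-29, library 2 had the lowest Lrat value, with a ratio of 0.779. In control mice, library 5 had the highest Lrat value, with a ratio of 0.655. Control library 2 had the highest Aldh1a1 value, also with a ratio of 0.655. No rat group held such a library.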

How the results depend on the processing

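The read depth behind the normalised counts is unknown, which leaves the counting error of low genes such as Cyp26a1 without a value. Median-of-ratios rescaling, a pseudocount of 8, no filter and no variance trend kept the number of member genes called in each of the 7 comparisons within 1.5 times, and Ttr at 3 and 6 months and Cyp26a1 at 6 months against prediabetic livers were called under every alternative, each left-out library included.

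Genes called over the whole table moved by more than 1.5 times in some settings, and the cause was not tested. With LNA-29 the number was 355, against 212 without a filter and 195 without a variance trend. With only the 2 groups compared it was 167 for 3 months against 2 weeks, where the fit of all groups called 320. The deviations of same-numbered libraries from their group means had correlations from -0.18 to 0.22 over all comparisons. These cannot settle whether the replicate numbers pair animals, and the main fit does not pair them. With a replicate block, which in rats also fits only the 2 groups, genes called were 944 at 3 months and 1441 at 6 months against prediabetic livers, 141 at 3 months and 12 at 6 months against 2 weeks, 4 at 6 months against 3 months and 70 with LNA-29. Member genes called with the block were 0 at 3 months against 2 weeks and 0 at 6 months against 2 weeks. The block also turned the log2 change of Dhrs3 at 6 months against 3 months to 0.025, and it ended the calls of Dhrs3 (adjusted p = 0.113) and Lrat (0.0526) at 3 months and of Dhrs3 (0.141) at 6 months against prediabetic livers. It gained a call of Aldh1a1 at 3 months against prediabetic livers (log2 -0.64, adjusted p = 0.0272).

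Leaving out each library in turn, genes called ran from 0 to 3 at 2 weeks, 1449 to 2393 at 3 months and 1920 to 3573 at 6 months against prediabetic livers. They ran from 41 to 557 at 3 months and 317 to 1717 at 6 months against 2 weeks, 0 to 4 at 6 months against 3 months and 120 to 540 with LNA-29. Member genes called ran over 0 to 1, 1 to 4, 2 to 3, 0 to 1, 0 to 4, 0 to 0 and 0 to 1 in the same 7 comparisons. Uncalled changes changed sign in 18 of these refits, and the ranges over all left-out libraries follow on the log2 scale. Against prediabetic livers at 2 weeks they were Cyp26a1 (-0.057 to 0.75) and Dhrs3 (-0.16 to 0.051), and at 3 months Rbp4 (-0.15 to 0.027). At 3 months against 2 weeks it was Rbp4 (-0.067 to 0.11). At 6 months against 3 months they were Aldh1a1 (-0.061 to 0.23) and Dhrs3 (-0.16 to 0.025). With LNA-29 it was Ttr (-0.053 to 0.12), whose sign changed without control library 4.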
